A study of Mus musculus with 4 samples.

Results

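The pyruvate dehydrogenase complex joins glycolysis to the citric acid cycle by turning pyruvate into acetyl-CoA inside mitochondria. Its genes were examined in differentiating 3T3-L1 cells through 10 genes listed by name: the kinase genes Pdk1, Pdk2, Pdk3 and Pdk4, the phosphatase genes Pdp1 and Pdp2, and the subunit genes Pdha1, Pdhb, Dlat and Pdhx. All probe sets annotated to them were taken, 18 in number, from an Affymetrix 3' expression array with 45101 probe sets and 18194 named genes. Probe sets were tied to genes through gene identifiers, so that the unrelated kinase gene Pdpk1, which shares the alias Pdk1, was not mixed in.

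3T3-L1 is a mouse fibroblast line that becomes fat cells when insulin, dexamethasone and 3-isobutyl-1-methylxanthine are added. In the aof2 siRNA culture, preadipocytes had received an siRNA against Aof2 (now Kdm1a), which encodes the flavin-dependent histone demethylase LSD1. In the rfk siRNA culture the siRNA was directed at Rfk, which encodes riboflavin kinase, an enzyme that turns vitamin B2 into a flavin cofactor. The tranylcypromine culture was induced in the presence of this inhibitor of LSD1 and of monoamine oxidases. No siRNA is given for it in the labels, so that the drug and a lack of transfection cannot be told apart. The control siRNA culture had received siGL3. Cells were transfected 24 h before induction and harvested 24 h after it, in medium with 25 mM glucose and 10% serum. Each group is 1 culture of 1 cell line on 1 array, so no test between conditions is possible, and all values are single measurements without replicate error.

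When active, the complex commits carbon from glucose to oxidation or, in fat cells, to fatty acid synthesis. Kinases switch it off by phosphorylating the alpha subunit of its first enzyme, and phosphatases switch it on again. The kinases differ in their known control: PDK4 is classically induced by fasting, glucocorticoids and fatty acids, and PDK1 by low oxygen through hypoxia-inducible factor. None of these background facts was measured here.

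The values are the authors' MAS5 signals, which summarise the probes of a probe set as 1 linear intensity. Kdm1a stood at 19.5% of control with aof2 siRNA and Rfk at 27.0% of control with rfk siRNA. The 18 probe sets of the bacterial hybridisation controls, which are added in equal amounts to every array, lay within log2 differences of -0.26 to 0.21 of the control array. This spread covers array error and leaves out the variation between cultures. The 24 probe sets of the poly-A controls, added to the RNA before labelling, averaged 0.29, 0.17 and -0.01 above control in the aof2 siRNA, rfk siRNA and tranylcypromine arrays, with single probe sets up to 0.87, 0.78 and 0.66. The 3' over 5' signal ratio of Gapdh was 0.834 to 0.841 on the 4 arrays. Of the fat cell markers, 7 of 8 were named on the array and their signals summed to 6626, 7112 and 6111 with aof2 siRNA, rfk siRNA and tranylcypromine, against 9420 in control, while Adipoq (at most 22) and Cd36 (at most 33) were dim on all 4 arrays. All 7 markers of preadipocytes and fibroblasts were bright, with sums of 74131, 69521, 68226 and 67785 in the same order. Vim and Col3a1 made up most of these sums. Pdgfra, Dlk1 and Vim stood above control in every treated array. Pdgfrb, Col3a1 and Col1a1 stood below it, Col1a1 at log2 differences of -0.55, -1.01 and -0.98, and Thy1 was mixed. Fabp4, Lpl and Pparg were the bright fat cell markers, and Adipoq, which defines the mature cell, was not among them. Lpl and Fabp4 made up most of the fat cell sum. Fabp4, Dgat2 and Pparg stood below control in every treated array. Cebpa stood above it, at log2 differences of 0.56, 0.03 and 0.28, and Lpl was at -0.43, 0.01 and -0.47. The part that the lower fat cell sum has in the results below was not tested. The markers of muscle, macrophages, endothelium and epithelium summed to at most 352 for any of these 4 lists on any array.

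In the aof2 siRNA array, Pdk4 and Pdp1 were higher than control and Pdk1 was lower, and these were the 3 members at least 1.5-fold from control. Among 9 members compared, 2 were thus at least 1.5-fold higher, where 6.26% of all 10788 compared genes were, and 1 was at least 1.5-fold lower, where 2.88% were. With tranylcypromine, Pdk4 alone was at least 1.5-fold higher (background 7.48%), and 0 members were as far below control (background 4.77%). With rfk siRNA, 0 members were at least 1.5-fold higher (background 3.92%) and 0 were at least 1.5-fold lower (background 3.8%). With 9 members such counts are too small to set apart from the background. Genes were compared when their mean log2 signal was at or above that of the middle probe set (50.9 on the linear scale), and Pdk2 was the member left out. At 2-fold, 0 members were higher or lower in any array, where the background was 1.61% higher and 0.538% lower with aof2 siRNA, 0.927% and 0.806% with rfk siRNA, and 2.23% and 0.945% with tranylcypromine. In bulk RNA, fewer cells of a type and less RNA per cell cannot be told apart.

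**Figure D1:**
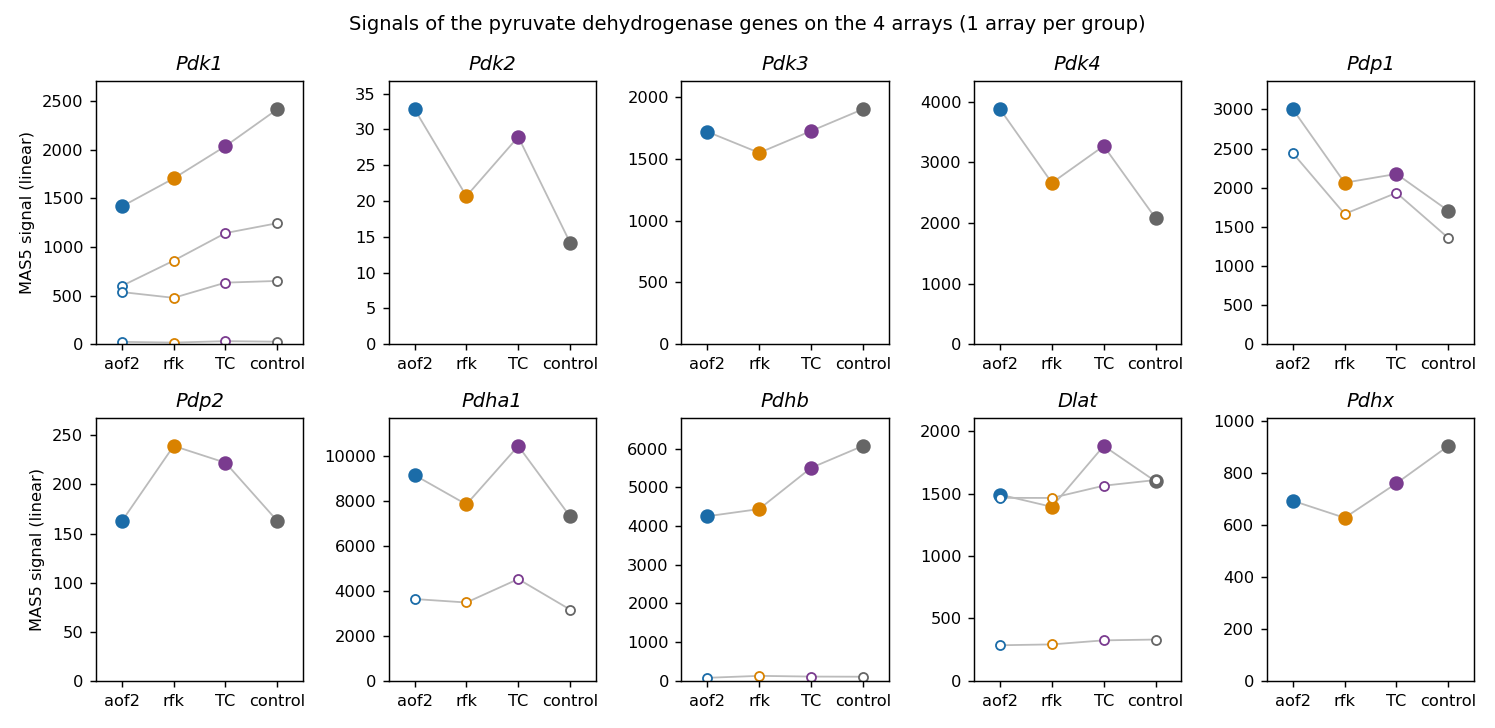
MAS5 signal (linear, from 0) of each of the 10 genes with aof2 siRNA, rfk siRNA, tranylcypromine (TC) and control siRNA, 1 array each. Filled points are the probe set that stands for the gene, open points its other probe sets, and grey lines join points of 1 probe set. Control is the lowest of the 4 for Pdk4, Pdp1 and Pdha1 and the highest for Pdk1, Pdk3, Pdhb and Pdhx.

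Pdk4, the starvation-type kinase, had signals of 3878 with aof2 siRNA, 2663 with rfk siRNA and 3271 with tranylcypromine, against 2080 with control siRNA. It was highest with aof2 siRNA and lowest in control, at 1.86-fold, 1.28-fold and 1.57-fold of control. The log2 differences were 0.90, 0.36 and 0.65, all past the spread of the hybridisation controls, while the highest poly-A control probe sets, at 0.87, 0.78 and 0.66, came close to or above them. As large a difference upwards was reached by 0.829%, 6.01% and 3.13% of the 6873 bright genes, here genes at or above the 75th percentile of probe sets by mean log2 signal (414 or more on the linear scale). Pdk4 has 1 probe set on the array, so no other probe set bears on its values.

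Pdk1, the kinase known as a hypoxia target, stood on the other side of control. Its brightest probe set had signals of 1416 with aof2 siRNA, 1705 with rfk siRNA and 2037 with tranylcypromine, against 2416 with control siRNA. The aof2 siRNA array was lowest and control highest, with log2 differences of -0.77, -0.50 and -0.25. The first was matched downwards by 0.422% of bright genes, the second by 2.50% and the last by 18.4%. Another Pdk1 probe set read 599, 859 and 1143 in the treated arrays, against 1244 in control, and gave -1.05, -0.53 and -0.12. A further one read 536, 477 and 633, against 651 in control, and gave -0.28, -0.45 and -0.04. All 3 probe sets thus placed Pdk1 below control in each treated array, but they disagree about the size with aof2 siRNA, and the differences with tranylcypromine lie within the spread of the hybridisation controls. A probe set annotated to Pdk1 with signals of 16.8 to 31.4 was too dim to be read.

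Pdk3, a kinase of narrower tissue range, differed little. Its signals were 1720 with aof2 siRNA, 1549 with rfk siRNA and 1725 with tranylcypromine, against 1902 with control siRNA. The log2 differences of -0.15 and -0.14 with aof2 siRNA and tranylcypromine lie within the spread of the hybridisation controls, and -0.30 with rfk siRNA lies just past it. Pdk2, the most widely expressed of the kinases in the mammalian body, was near the floor of these arrays. It read 32.8, 20.7 and 29.0 in the aof2 siRNA, rfk siRNA and tranylcypromine arrays, against 14.2 in control, all below the filter of 50.9. Its nominal log2 differences of 1.21, 0.54 and 1.03 are of unreliable size, because dim MAS5 signals scatter widely, and they enter no count.

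**Figure D2:**
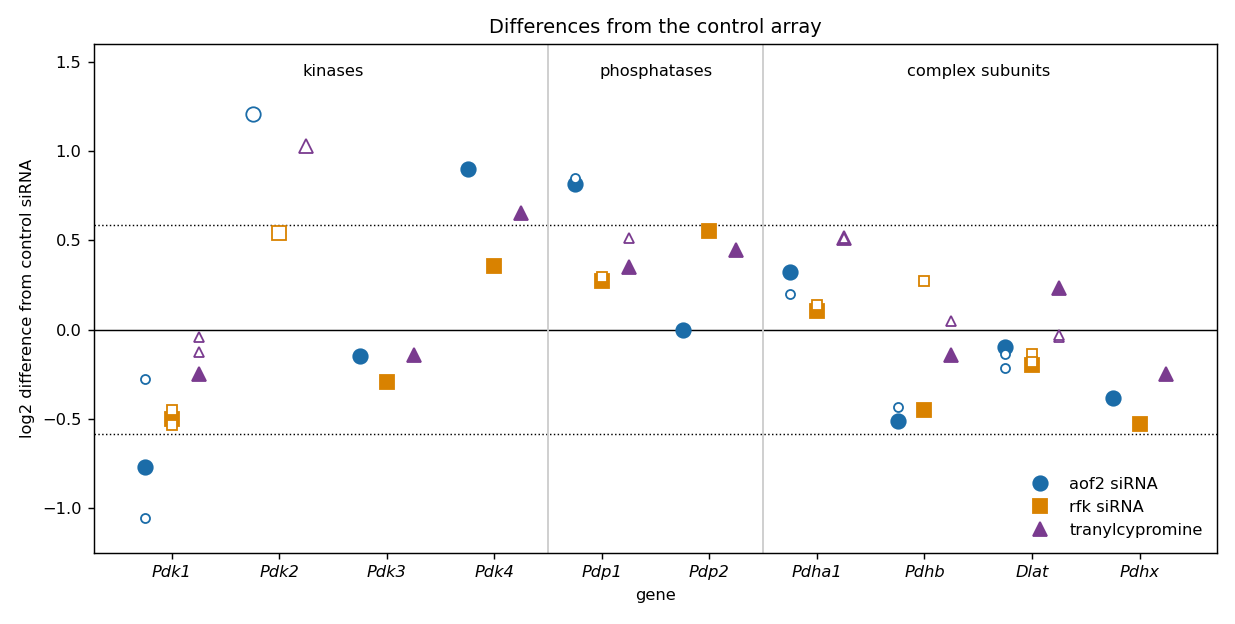
Log2 difference from control siRNA (vertical) of each gene (horizontal) for aof2 siRNA (circles), rfk siRNA (squares) and tranylcypromine (triangles). Large filled symbols are the probe set that stands for the gene, small open ones its other probe sets above the filter, and large open ones the dim Pdk2; dotted lines mark 1.5-fold. Pdk4 and Pdp1 stand above the upper line with aof2 siRNA, and Pdk1 below the lower one.

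Setting the kinases against each other on the same arrays removes array scaling, since any factor shared by an array cancels. Pdk4 stood above Pdk1, relative to control, by 1.67 on the log2 scale with aof2 siRNA, which is a 3.18-fold shift of the ratio between them. The same quantity was 0.86 with rfk siRNA and 0.90 with tranylcypromine. Over the 3 readable Pdk1 probe sets it ranged from 1.18 to 1.95 with aof2 siRNA, from 0.81 to 0.89 with rfk siRNA and from 0.69 to 0.90 with tranylcypromine. Pdk4 also stood above Pdk3, by 1.04, 0.65 and 0.79 in that order. Pdk3 against Pdk1 was 0.63 with aof2 siRNA, 0.21 with rfk siRNA and 0.11 with tranylcypromine, and over the Pdk1 probe sets it ran from 0.13 to 0.91, from 0.15 to 0.24 and from -0.10 to 0.11. Of the 6 pairs, the 3 with Pdk2 are not read because it is dim. These are shifts in ratio against control, and the levels of the kinases were not compared with each other, since probe sets differ in brightness per transcript.

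**Figure D3:**
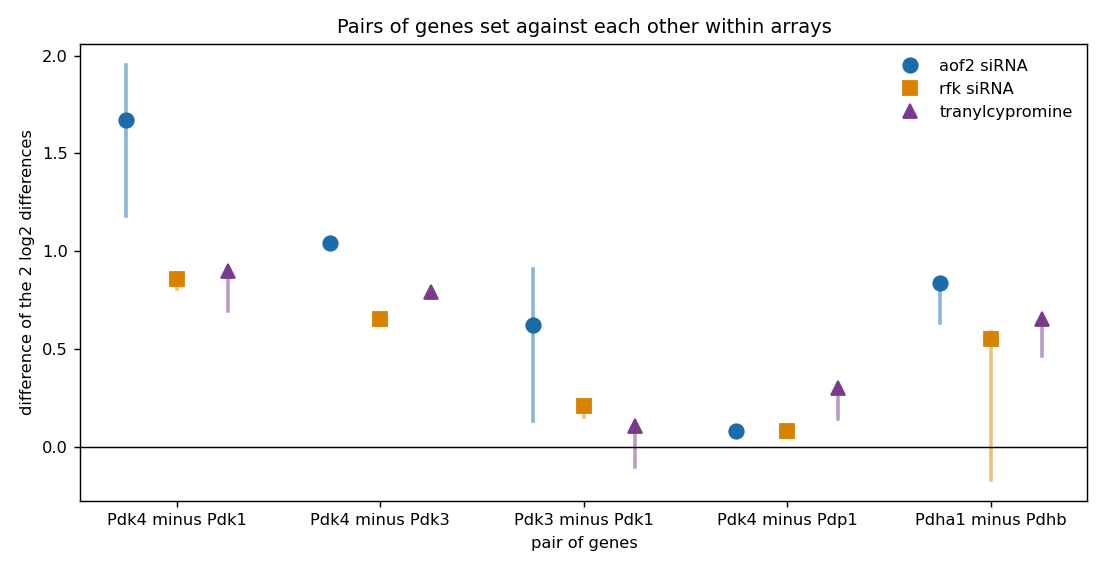
Difference between the log2 differences of 2 genes (vertical) for 5 pairs, with aof2 siRNA, rfk siRNA and tranylcypromine against control siRNA. Points are the probe sets that stand for the genes and bars the range over all combinations of probe sets above the filter. Pdk4 minus Pdk1 is 1.67, 0.86 and 0.90, and Pdk4 minus Pdp1 stays between 0.08 and 0.30.

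Each comparison uses the same control array, and that array lay at an end of the order of the 4 for many members. It was the lowest or highest of the 4 for 7 of the 9 members compared, and for 48.1% of all compared genes. Against the mean of the 3 other arrays in place of control, Pdk4 was at 0.56 with aof2 siRNA, -0.16 with rfk siRNA and 0.24 with tranylcypromine, and Pdk4 minus Pdk1 was 1.08 with aof2 siRNA, 0.0032 with rfk siRNA and 0.06 with tranylcypromine. For rfk siRNA and tranylcypromine that mean includes the aof2 siRNA array as well as control. Between treated arrays, which leaves control out, Pdk4 differed by -0.25 and Pdk1 by 0.52 for tranylcypromine minus aof2 siRNA. For rfk siRNA minus aof2 siRNA, Pdk4 differed by -0.54 and Pdk1 by 0.27. For tranylcypromine minus rfk siRNA both were higher, Pdk4 by 0.30 and Pdk1 by 0.26.

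The phosphatases undo what the kinases do. Pdp1, the calcium-stimulated phosphatase, followed the order of Pdk4 on the 4 arrays. Its signals were 3003 with aof2 siRNA, 2064 with rfk siRNA and 2176 with tranylcypromine, against 1706 with control siRNA. It was highest with aof2 siRNA and lowest in control, with log2 differences of 0.82, 0.27 and 0.35. Its other probe set read 2443, 1664 and 1935, against 1358 in control, and gave 0.85, 0.29 and 0.51. By the brighter probe set, 1.05%, 9.62% and 10.7% of bright genes were as far above control in that order. The highest poly-A control probe sets, at 0.87, 0.78 and 0.66, lay above the differences of both Pdp1 probe sets. Pdk4 minus Pdp1 was 0.08, 0.08 and 0.30, so the kinase and the phosphatase transcript stayed close in their differences with both siRNAs. Against the mean of the 3 other arrays, Pdp1 was the 1 member still at least 1.5-fold higher with aof2 siRNA (background 3.07%).

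Pdp2, the phosphatase known to be insulin-responsive, behaved otherwise. It was a dimmer transcript, with signals of 162 with aof2 siRNA, 239 with rfk siRNA and 222 with tranylcypromine, against 163 with control siRNA. The aof2 siRNA array matched control, with a log2 difference of -0.0031, and the other treated arrays stood above it by 0.55 and 0.45. Pdp2 minus Pdp1 was -0.82 with aof2 siRNA, 0.28 with rfk siRNA and 0.10 with tranylcypromine. Pdpr, which encodes the regulatory subunit that restrains the phosphatase, was 955, 1103 and 980 in the treated arrays, against 1608 in control. Its log2 differences were -0.75, -0.54 and -0.72, but its probe sets above the filter reached 0.78, 0.19 and -0.14, so they give no common size, and with the siRNAs no common direction.

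No subunit was 1.5-fold from control in these arrays, but the paired subunits of the first enzyme stood on opposite sides of it. Only with aof2 siRNA were both past the spread of the hybridisation controls. Pdha1 with rfk siRNA and Pdhb with tranylcypromine lay within that spread, as did the other Pdha1 probe set with aof2 siRNA. Pdha1, the alpha subunit that the kinases phosphorylate, had signals of 9134 with aof2 siRNA, 7833 with rfk siRNA and 10427 with tranylcypromine, against 7299 with control siRNA. It was lowest in control, with log2 differences of 0.32, 0.10 and 0.51, and its other probe set gave 0.20, 0.14 and 0.51. Pdhb, the beta subunit that pairs with it, read 4252, 4438 and 5500, against 6068 in control. It was highest in control, with log2 differences of -0.51, -0.45 and -0.14. With arrays centred on their medians, Pdhb stood at -0.59 with aof2 siRNA, just past 1.5-fold. A dim Pdhb probe set, at 80.1 to 131, gave -0.43, 0.27 and 0.05, so only the value with aof2 siRNA was below control in both.

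Pdha1 minus Pdhb was 0.84 with aof2 siRNA, 0.55 with rfk siRNA and 0.66 with tranylcypromine. Over all combinations of probe sets it ran from 0.63 to 0.84, from -0.17 to 0.59 and from 0.47 to 0.66. The transcripts of the paired subunits thus stood apart in the same direction on every combination with aof2 siRNA and with tranylcypromine, and not with rfk siRNA. Pdhx, which anchors the third enzyme to the core, had signals of 694, 629 and 762, against 906 in control, and log2 differences of -0.38, -0.53 and -0.25. Dlat, the core acetyltransferase, read 1492, 1394 and 1883, against 1599 in control, with log2 differences of -0.10, -0.20 and 0.24. The last came from a probe set that matches several transcripts, and the other Dlat probe sets gave values near 0 with tranylcypromine, -0.04 for the brighter of them. Dld, the third enzyme, which other complexes share, was at -0.10, -0.06 and 0.12.

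The 4 subunits had median log2 differences of -0.24, -0.32 and 0.05, where the medians over all compared genes were -0.0041, -0.0089 and -0.02. With aof2 siRNA and with rfk siRNA, 1 subunit was above control and 3 were below, and with tranylcypromine 2 were above and 2 below.

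**Figure D4:**
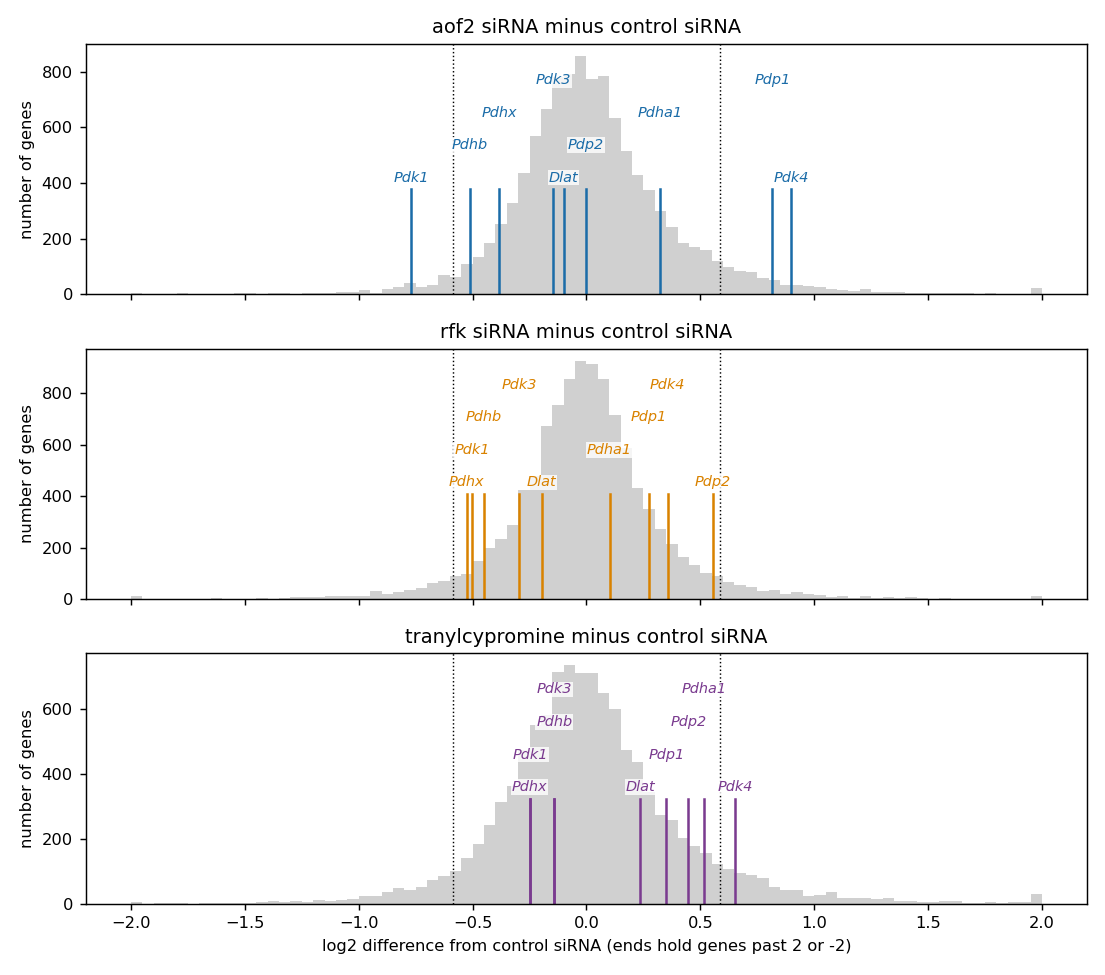
Number of compared genes (vertical) by log2 difference from control siRNA (horizontal), with the 9 members compared marked by lines, for aof2 siRNA, rfk siRNA and tranylcypromine. Dotted lines mark 1.5-fold. Pdk1 lies in the lower tail and Pdk4 and Pdp1 in the upper tail with aof2 siRNA, and all 9 members lie inside 1.5-fold with rfk siRNA.

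RefSeq promoter windows of GRCm38.p6 were found for 9 of the 10 members, all but Pdp1. The 250 bases before the annotated start are shown for the kinases Pdk1 and Pdk4 and for Pdha1 and Pdhb, each read 5′ to 3′ on the gene's strand. They lie at chr2:71872974-71873223 on the plus strand for Pdk1, chr6:5496279-5496528 on the minus strand for Pdk4, chrX:160138431-160138680 on the minus strand for Pdha1 and chr14:8172993-8173242 on the minus strand for Pdhb. Capitals mark the GC box GGGCGG, the CAAT box word CCAAT and the TATA-like word ATAAA, searched on both strands.
Pdk1: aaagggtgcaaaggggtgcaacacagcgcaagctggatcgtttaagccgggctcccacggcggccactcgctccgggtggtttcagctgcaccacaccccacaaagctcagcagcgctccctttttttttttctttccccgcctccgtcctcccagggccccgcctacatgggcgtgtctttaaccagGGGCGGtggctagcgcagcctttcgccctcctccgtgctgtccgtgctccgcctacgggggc
Pdk4: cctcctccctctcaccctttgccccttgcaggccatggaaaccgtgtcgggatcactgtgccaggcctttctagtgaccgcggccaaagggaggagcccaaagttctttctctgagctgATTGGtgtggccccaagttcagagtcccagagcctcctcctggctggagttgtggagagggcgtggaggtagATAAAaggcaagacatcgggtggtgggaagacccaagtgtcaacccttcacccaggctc
Pdha1: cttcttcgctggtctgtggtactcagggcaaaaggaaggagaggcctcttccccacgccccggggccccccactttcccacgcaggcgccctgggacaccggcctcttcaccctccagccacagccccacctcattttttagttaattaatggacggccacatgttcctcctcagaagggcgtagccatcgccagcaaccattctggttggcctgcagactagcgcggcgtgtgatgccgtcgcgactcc
Pdhb: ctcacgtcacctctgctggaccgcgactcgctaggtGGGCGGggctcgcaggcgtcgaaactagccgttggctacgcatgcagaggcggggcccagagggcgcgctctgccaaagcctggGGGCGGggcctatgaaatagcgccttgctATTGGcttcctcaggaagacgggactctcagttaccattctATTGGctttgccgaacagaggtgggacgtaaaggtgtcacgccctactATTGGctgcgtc
The Pdk4 window holds ATAAA 59 bases before the start and 1 CCAAT match on the opposite strand, whereas the Pdk1 window holds 1 GGGCGG and neither of the other words. Pdhb holds 2 GGGCGG and 3 CCAAT matches, and Pdha1 holds 0 of the 3 words. Over all 32851 windows of this length, 32.7% hold GGGCGG, 33.8% CCAAT and 37.3% ATAAA on either strand. Pdk1 has 19 CpG dinucleotides in the window shown and Pdk4 has 6. With 50 more bases after the start the counts were 25 and 12, but 2 at another annotated Pdk1 start. The CpG count over all windows was not computed.

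The windows, with 50 more bases after the start, were also searched on both strands for short words that known regulators bind. These were ACGTG (hypoxia-inducible factor and E-box proteins), GTAAACA (forkhead factors), AAGGTCA (oestrogen-related receptors), TGTTCT (a word of the glucocorticoid receptor's site) and TGACG (cyclic AMP response). None of the 5 words occurred in the Pdk4 window or in the printed Pdk1 start, and a further annotated Pdk1 start held 2 matches of TGTTCT. The word ACGTG occurred near Pdk2, Pdk3, Pdp2 and Pdhb, and in 19.6% of all windows. TGACG occurred near Pdk2, Pdp2, Pdha1, Pdhb and Dlat, and in 20.8% of all windows. The ACGTG matches of Pdk2 and Pdp2 lie on both strands of the same bases, and in Pdp2 and Pdhb they overlap a TGACG match. The other words were in 3.65% (GTAAACA), 4.72% (AAGGTCA) and 19.0% (TGTTCT) of windows. A match is a description of the sequence, and the absence of one covers this window only.

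Most genes around the complex were less than 1.5-fold from control, as were most compared genes. Of 15 citric acid cycle genes compared, 0 were at least 1.5-fold from control in any array, with medians of -0.04 after each siRNA and 0.07 with tranylcypromine. The background was 6.26% higher and 2.88% lower with aof2 siRNA, 3.92% and 3.8% with rfk siRNA, and 7.48% and 4.77% with tranylcypromine. With 15 genes a count of 0 is too small to set apart from this background. Idh3a, a subunit of isocitrate dehydrogenase, was the highest citric acid cycle gene at 0.36 with tranylcypromine (another of its probe sets gave 0.88). Sdhd, an anchor of succinate dehydrogenase, was the lowest at -0.20. The probe sets of Dlst above the filter ran from -0.82 to 0.71 with aof2 siRNA, past 1.5-fold in both directions, where the brightest gave -0.04. Of 6 compared genes of pyruvate entry and lactate metabolism, 0 were 1.5-fold from control, a count too small to set apart from the same background. Their medians were -0.11, -0.09 and 0.09. Mpc1, a subunit of the mitochondrial pyruvate carrier, had signals of 3188, 3543 and 2735, against 3879 in control, and its log2 difference of -0.50 with tranylcypromine was the lowest of the list. Pcx, the carboxylase that turns pyruvate into oxaloacetate, was at 0.31, -0.28 and 0.14 and held the highest value of the list, with aof2 siRNA, where its probe sets ran from -0.21 to 0.31. With rfk siRNA they ran from -0.88 to 0.18.

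Of the 5 genes that export citrate and use acetyl-CoA, 2 were at least 1.5-fold higher with tranylcypromine (background 7.48%). The median was 0.50, against -0.02 over all compared genes. A count of 2 in 5 genes is too small to set apart from the background. Fasn, the fatty acid synthase gene, had signals of 3450 with aof2 siRNA, 4041 with rfk siRNA and 5064 with tranylcypromine, against 3312 in control. Acss2, which makes acetyl-CoA from acetate, stood at 0.18, 0.20 and 0.61, and with tranylcypromine its probe sets ran from 0.61 to 0.94. Acly, which splits exported citrate, was the lowest of the list at -0.07 with aof2 siRNA, where its probe sets ran from -0.43 to 0.05, and stood at 0.04 with tranylcypromine, within the spread of the hybridisation controls. The medians of this list with the siRNAs were 0.06 for aof2 siRNA and 0.20 for rfk siRNA.

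Of 10 compared genes among known regulators of the kinase genes, the furthest from control was Ppargc1a, a coactivator of oxidative metabolism. With aof2 siRNA 1 of the 10 was at least 1.5-fold higher (background 6.26%) and 0 lower (2.88%). With rfk siRNA 1 was higher (background 3.92%) and 1 lower (3.8%). With tranylcypromine 2 were higher (background 7.48%) and 0 lower (4.77%). With 10 genes such counts are too small to set apart from the background. Ppara and Ppargc1b were below the filter. Ppargc1a had signals of 207, 288 and 350, against 91.0 in control, and was highest with tranylcypromine. Its probe sets above the filter ran from 0.41 to 1.28 with aof2 siRNA, from short of 1.5-fold to past it. In the other treated arrays all of them were past 1.5-fold above control. Pdk4 was highest with aof2 siRNA, and whether Ppargc1a has a part in its values was not tested. Esrra, the partner receptor of Ppargc1a, was at 0.35, 0.02 and 0.61, but another probe set of Esrra gave -0.37 with aof2 siRNA and -2.93 with tranylcypromine. Pparg, the fat cell receptor, was at -0.12, -0.77 and -0.44. Hif1a, which encodes the hypoxia-inducible factor subunit, was at -0.17, -0.08 and -0.0018, but another of its probe sets gave -0.99 with tranylcypromine. Nr3c1, the glucocorticoid receptor gene, was at 0.22, -0.03 and -0.01, and another of its probe sets gave -1.08 with tranylcypromine.

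**Figure D5:**
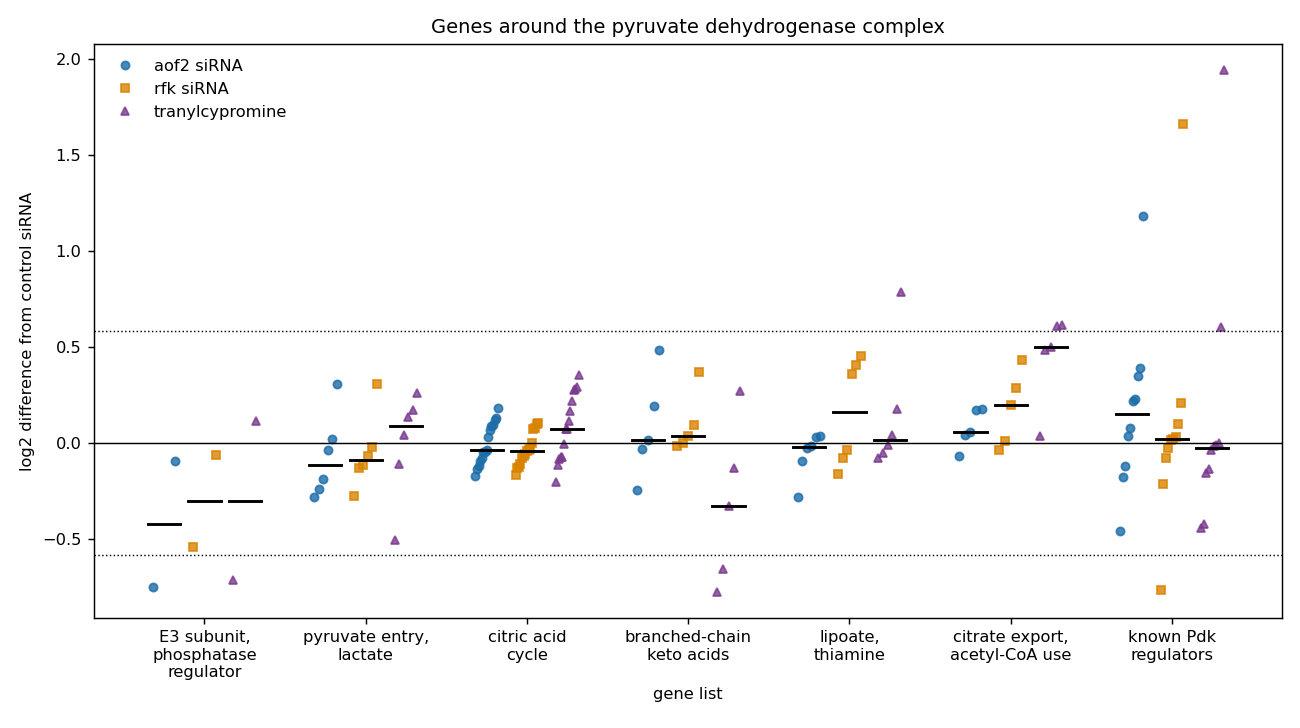
Log2 difference from control siRNA (vertical) of each compared gene in 7 lists of genes (horizontal), with aof2 siRNA, rfk siRNA and tranylcypromine side by side; black bars are medians and dotted lines 1.5-fold. By the probe set that stands for each gene, citric acid cycle genes lie within 1.5-fold in all 3 arrays, and Ppargc1a is the top point of the last list.

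Genes with patterns most like Pdk1, Pdk3 and Pdk4 were sought among 6865 bright genes by the root mean square distance of the 3 log2 differences, which rest on 4 arrays that share a control. Nearest to Pdk1 were the cyclin gene Ccne1 (distance 0.05), the matrix protein gene Spon2 (0.07) and the phosphofructokinase gene Pfkl (0.08), and 19 genes lay within 0.15. Nearest to Pdk4 were Rab3il1 (0.06), the receptor gene Calcrl (0.07) and the pseudogene Pisd-ps3 (0.07), with 25 genes within 0.15. The pattern of Pdk3 was common, with 1108 genes within 0.15, Mrpl17, D8Ertd738e and Socs7 first. No genes are named for Pdk2, whose signals were below the filter.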

How the data were processed

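RNA of 4 cultures was labelled with biotin from 250 ng total RNA and measured on 1 Affymetrix array each, per the labels' protocols. The deposited values are linear signal intensities made with MAS5, per the submitters' processing notes. Not given in the sources used here are the version, the scaling target and detection calls. With 2% of probe sets trimmed at each end, the mean intensity was 500.003 on every array, so the authors had scaled each array, which hides any difference in total RNA per cell. Dim MAS5 signals scatter widely.

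Intensities were log2-transformed without an offset. Probe sets were named from the platform annotation, updated through gene identifiers in RefSeq's GRCm38.p6 table: 34958 probe sets had 1 symbol (34754 identifiers matched, 0 symbols changed), 932 had several and named no gene, and 9211 were unnamed here. The brightest probe set on average stands for a gene, and the 10788 genes at or above the median of all probe sets (signal 50.9) were compared. "Called" means at least 1.5-fold from control. With 1 array per group no test, SD or p-value is given, and the number of arrays limits the precision. Members, lists and motifs were chosen with earlier results of these data known. The 3 promoter words shown in capitals were chosen after the promoter sequences were seen. Named genes are all members, list genes at least 1.5-fold from control or at the ends of a list, the targets, regulators of Pdk genes, and the 3 genes most like each kinase above the filter. Some regulators and neighbours of the complex were named after their values were seen. Alternatives covered scaling, offset, filter, probe set choice, reference and threshold. The counting steps were tested on simulated data. Python 3.11.15, NumPy 2.4.6, pandas 2.3.3 and matplotlib 3.10.9 were used.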

Additional observations from a re-analysis of the deposited data

How the results depend on the processing

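The 6 alternatives that can change a difference left the directions of Pdk4, Pdp1 and Pdk1 with aof2 siRNA as they were. For these genes several of them could alter little or nothing. Pdk4 has 1 probe set, so the choice of probe set could not alter its value. Removal of less specific probe sets kept the same ones for Pdp1 and Pdk1, so their values could not change either. The changed reference moved these genes most, Pdk4 to 0.56 and Pdk1 to -0.52, both short of 1.5-fold, and Pdp1 to 0.61. Scaling and the offset moved 0 of 81 differences of single members by more than 0.26 on the log2 scale, the largest shift of a hybridisation control. These settings could move little, since the arrays already shared a trimmed mean of 500.003. An offset of 16 is also small beside the signals of the members compared. The choice of probe set altered 18 differences, 2 of them by more than that, and turned Dlat with tranylcypromine to -0.04. Replacing the control array by the average of the other 3 arrays moved 11 of 27 by more than 0.26 and turned the sign of 9. These were Pdk3 with aof2 siRNA (0.00026), Pdk4, Pdp1 and Pdha1 with rfk siRNA (-0.16, -0.11 and -0.18), and Pdk1, Pdk3, Pdp1, Pdhb and Pdhx with tranylcypromine (0.18, 0.0064, -0.01, 0.18 and 0.05). The count of members at least 1.5-fold from that reference was 1 with aof2 siRNA (3 against control). It was 0 with tranylcypromine (1 against control). Of all compared genes, 3.07% were as far above that reference and 1.66% as far below with aof2 siRNA, and 4.34% and 3.43% with tranylcypromine. With that reference, Pdk4 minus Pdk1 was 1.08 with aof2 siRNA, 0.0032 with rfk siRNA and 0.057 with tranylcypromine. At 2-fold the counts were 0 with aof2 siRNA and 0 with tranylcypromine. Without the filter the count with tranylcypromine was 2, because the dim Pdk2 entered. With the mean of all probe sets, Pdk1 with aof2 siRNA stood at -0.55, short of 1.5-fold, as the dim probe set and the one at -0.28 enter the mean.

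Among all genes, 675 were at least 1.5-fold higher and 311 lower with aof2 siRNA, so 68.5% of them were higher, but 53.8% with arrays centred on their medians. With tranylcypromine 807 were higher and 515 lower, or 61.0% higher, and 50.3% after centring. With rfk siRNA 423 were higher and 410 lower. These counts depend on the filter: without it they were 3244 and 2337, 3569 and 2541, and 2892 and 2646 in that order, and with the stricter one 205 and 84, 275 and 159, and 113 and 106. With the average of the other 3 arrays as reference they were 331 and 179, 468 and 370, and 265 and 449. At 2-fold they were 174 and 58, 241 and 102, and 100 and 87. No paired analysis was possible because each group has 1 array, and for the same reason leaving out a replicate was not possible. Signals under 50.9 limit what can be read of Pdk2.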

Other observations

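The complex that breaks down branched-chain keto acids is built like pyruvate dehydrogenase and has its own kinase and phosphatase. With tranylcypromine 2 of its 5 genes were at least 1.5-fold lower, where 4.77% of all compared genes were, and 0 were higher (background 7.48%). A count of 2 in 5 genes is too small to set apart from that background. The median log2 difference of this complex was -0.33, where the median over all compared genes was -0.02. Bckdhb, the beta subunit of its first enzyme, had signals of 1304 with aof2 siRNA, 1586 with rfk siRNA and 982 with tranylcypromine, against 1548 with control siRNA. Ppm1k, its phosphatase, had signals of 296, 299 and 177, against 303 in control, and another probe set of Ppm1k gave a log2 difference of -0.11 with tranylcypromine where this one gave -0.77. Bckdha, the alpha subunit, was at 0.48, 0.0019 and -0.13. Bckdk, the kinase of that complex, was at 0.19, 0.09 and 0.27, while its other probe set gave 0.89, 1.11 and 1.23, so its probe sets give no common size. Dbt, the core acyltransferase, was at 0.02, 0.37 and -0.33.

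Among 6 compared genes that supply lipoate and thiamine cofactors, Lipt1, which transfers lipoate to the subunits, had signals of 110, 148 and 186, against 108 in control. It was the 1 gene of that list at least 1.5-fold from control, with tranylcypromine, at a log2 difference of 0.79. Of all compared genes, 7.48% were as far above control and 4.77% as far below with tranylcypromine. A count of 1 in 6 genes is too small to set apart from that background. Mcat, of mitochondrial fatty acid synthesis, was the lowest of the list at -0.28 with aof2 siRNA.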
